A study of Mus musculus with 36 samples.

Results

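The 64 genes described here encode the initiation and elongation factors of cytoplasmic translation. They are the genes of the deposited table whose symbol begins with Eif1 to Eif6 or with Eef1, or is Eef2 itself, and they make up 64 of 18845 genes. They comprise 9 elongation factors (here including Eif5a and Eif5a2), 14 factors of the eIF1, eIF2, eIF5 and eIF6 families, 5 subunits of eIF2B, 14 subunits of eIF3, 12 genes of the eIF4 group, 3 inhibitory 4E-binding proteins, 4 kinases of eIF2alpha and 3 methyltransferases of eEF1A. The libraries hold RNA bound to HA-tagged ribosomes (RiboTag), which carry the tag only in cells with Cre recombinase. The diaphragm samples are synapse-enriched muscle of Ribo-tag mice, which carry no Cre (Cre-negative), or of ChAT-Cre;Ribo-tag mice (Cre-positive), in which Cre is driven by the gene of choline acetyltransferase, the enzyme that marks motor neurons. The spinal cord samples are all of ChAT-Cre;Ribo-tag mice, so that tissue has no Cre-negative group. Each of these 3 series was sampled in the embryo at E15.5, after birth at P0.5 and P10 and at the age labelled 2 months (adult), with 3 libraries in each of the 12 groups.

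Translation starts when the eIF4 proteins bind the cap of an mRNA and unwind its leader, while eIF2 brings the initiator tRNA to the small ribosomal subunit that eIF1, eIF1A, eIF3 and eIF5 keep ready for scanning. The 4E-binding proteins hold the cap-binding protein back, and the eIF2alpha kinases stop eIF2 from being recharged by eIF2B. In elongation, eEF1A carries aminoacyl-tRNA to the ribosome and eEF2 moves the ribosome along. The eEF1A protein has 2 gene forms: Eef1a1 is the common form, and Eef1a2 is the form known to take its place after birth in neurons and in skeletal and heart muscle.

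Levels are read counts scaled so that each library sums to 1000000 (CPM), and depth was 68.2 to 107 M reads (in units of 1000000) in the diaphragm and 63.7 to 71.8 M in the spinal cord. The labels do not say whether the 3 libraries of a group came from separate animals, so p-values measure the spread between these libraries. In each group the library best matched by a mixture of the other libraries was taken as intermediate, so every group yields 1 by this rule. The weights added up to 0.972 to 0.998, and the root mean square distance was 2.39 to 10.2 counting errors. The intermediate library was replicate 3 in 9 of 12 groups. Counts below are therefore also given without these intermediate libraries, which leaves 2 in each group. Leaving out the best-matched library tends to widen the spread within a group, so calls can be lost through this choice alone. The defining motor neuron gene Chat was at 10.4 to 73.8 CPM in the spinal cord, at 0 in 12 of 12 Cre-negative diaphragm libraries and at 0 in 8 of 12 Cre-positive ones, where it reached at most 0.157 CPM. Diaphragm libraries from Cre-negative mice, which should hold no tagged ribosomes, thus show the background of the purification. They are given beside the Cre-positive diaphragm for most results. Sums by role and all comparisons with the spinal cord use the Cre-positive diaphragm alone, so they hold no check against this background.

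RefSeq holds a start site window for 49 of the factors (assembly GRCm38.p6). The windows of 4 factors on which the results turn are shown as 200 bases, 170 before the start and 30 from it, 5′ to 3′ on the gene's strand, with a TATA-like word (TATAAA or TATATAA) in capitals. Eef1a1 lies at chr9:78481695-78481894 on the minus strand, Eef1a2 at chr2:181156986-181157185 on the minus strand, Eef2 at chr10:81176461-81176660 on the plus strand and Eif5a2 at chr3:28781107-28781306 on the plus strand. The start of the Eif5a2 window lies 245 bases past the first base of the annotated gene, and those of the other 3 windows lie on it.
Eef1a1: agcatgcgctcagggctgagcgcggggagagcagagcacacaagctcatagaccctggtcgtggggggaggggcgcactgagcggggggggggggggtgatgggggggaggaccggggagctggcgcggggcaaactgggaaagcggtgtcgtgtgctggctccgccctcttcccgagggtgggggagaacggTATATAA
Eef1a2: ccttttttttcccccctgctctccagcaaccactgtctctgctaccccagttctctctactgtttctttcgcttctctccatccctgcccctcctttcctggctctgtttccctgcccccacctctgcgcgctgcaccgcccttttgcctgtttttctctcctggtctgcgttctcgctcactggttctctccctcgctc
Eef2: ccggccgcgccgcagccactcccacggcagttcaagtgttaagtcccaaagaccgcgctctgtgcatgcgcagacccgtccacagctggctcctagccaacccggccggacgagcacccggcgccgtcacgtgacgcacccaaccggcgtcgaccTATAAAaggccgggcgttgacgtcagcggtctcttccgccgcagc
Eif5a2: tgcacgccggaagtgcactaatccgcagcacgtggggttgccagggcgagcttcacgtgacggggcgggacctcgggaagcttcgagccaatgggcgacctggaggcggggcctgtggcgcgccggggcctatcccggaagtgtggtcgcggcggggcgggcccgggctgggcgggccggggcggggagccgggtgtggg
The word begins 24 bases past the annotated start in Eef1a1 and 15 before it in Eef2, and it is absent from the windows of Eef1a2 and Eif5a2. Searched on either strand, the TATAAA or TATATAA word was in 5 of 49 member windows (Eef1a1, Eef2, Eif1, Eif2s1 and Eif3f) and in 10.9% of 27025 windows of all genes. The word GGGCGG was in 31 of 49 member windows and in 32.3% of all windows. The median GC content was 63.5% for the members and 53.5% for all windows. These matches describe the letters of the windows and show no binding.

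The factors together took a smaller share of the reads at each later age in all 3 series. Their summed level in the spinal cord was 12420 ± 426 CPM at E15.5 (SD, n = 3 here and below) and 7491 ± 149 CPM in the adult. In the Cre-positive diaphragm it was 11820 ± 1171 and 4939 ± 254 CPM, and in the Cre-negative diaphragm 13770 ± 63.9 and 5911 ± 81.2 CPM. Much of this sum was 1 gene. Without Eef1a1, the sums were 9342 ± 64.2 and 7106 ± 102 CPM in the spinal cord and 7900 ± 868 and 4558 ± 235 CPM in the Cre-positive diaphragm. They were 8397 ± 27.6 and 5436 ± 63.9 CPM in the Cre-negative diaphragm. By role, the summed level of the elongation factors went from 6238 to 2116 CPM in the spinal cord and from 7000 to 1999 CPM in the Cre-positive diaphragm. That of the eIF4 genes went from 1686 to 1214 CPM in the spinal cord and from 942 to 411 CPM in the Cre-positive diaphragm, and that of eIF3 from 2075 to 1663 and from 1776 to 1012 CPM. The eIF1, eIF2, eIF5 and eIF6 genes summed to 1902 CPM at E15.5 and 2104 CPM in the adult in the spinal cord, against 1545 and 1273 CPM in the Cre-positive diaphragm.

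**Figure D1:**
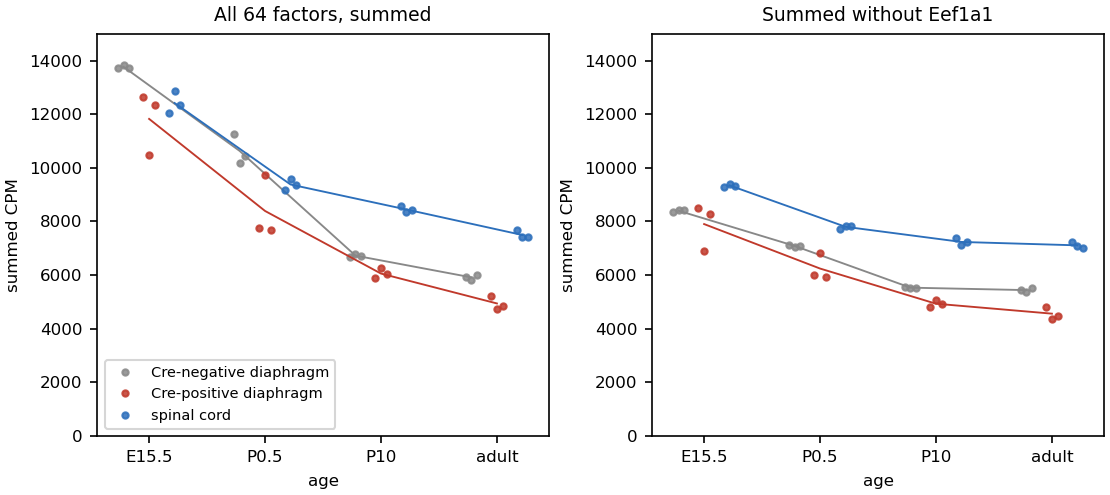
Summed level of the factors in CPM (vertical axis) by age (horizontal axis), with all 64 factors on the left and without Eef1a1 on the right. Points are the 3 libraries of a group and lines join group means. The spinal cord sum (blue) ends at 7491 CPM and the Cre-positive diaphragm sum (red) at 4939 CPM.

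With library totals as the scale, more factors were lower than higher in the adult compared with E15.5 in all 3 series. With limma on log2(CPM + 1), 40 of 62 tested factors were lower in the adult spinal cord and 14 were higher (adjusted p under 0.05, Benjamini-Hochberg over all genes tested). Of all genes tested, 26.3% were called higher and 58.1% lower in that comparison, and the median difference was -0.38 for the factors and -0.38 for all genes, so the factors stood where genes at large did. The Cre-positive diaphragm had 32 of 63 lower and 3 higher, where 10.9% of all genes were higher and 36.2% lower, and the medians were -1.08 for the factors and -0.59 for all genes. The Cre-negative diaphragm had 31 of 63 lower and 3 higher, where 16.3% of all genes were higher and 34.9% lower, with medians of -0.81 and -0.43. Median-of-ratios scaling (RLE), in place of library totals, moved the median of all genes to 0.00, -0.22 and -0.15 in these 3 comparisons. The split of higher and lower factors then became 28 and 26 in the spinal cord, 10 and 25 in the Cre-positive diaphragm and 9 and 27 in the Cre-negative diaphragm. Of all genes 82.6%, 44.7% and 49.6% were called in either direction with RLE scaling. Their shares by direction were not taken with that scaling, so RLE splits here and below lack them. Without the intermediate libraries the split of factors was 11 and 35, 1 and 23, and 1 and 21 with library totals. Of all genes 74.7%, 19.5% and 23.7% were then called. Markers of other cells moved over the same interval in the Cre-positive diaphragm. Its 10 of 10 cell cycle genes fell, from a summed level of 515.8 to 672.1 CPM at E15.5 to 6.613 to 10.21 in the adult. Of 8 hepatocyte markers 7 fell and 1 rose (9708 to 12260 CPM, then 217.3 to 461), and 6 of 6 fibroblast markers fell (1489 to 1507 CPM, then 197.1 to 298). In the Cre-negative diaphragm 10 of 10, 7 of 8 and 4 of 6 of these lists fell. In the spinal cord 9 of 10 cell cycle genes fell and 1 rose, and 6 of 6 fibroblast markers fell. Their part in the counts of factors was not tested.

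**Figure D2:**
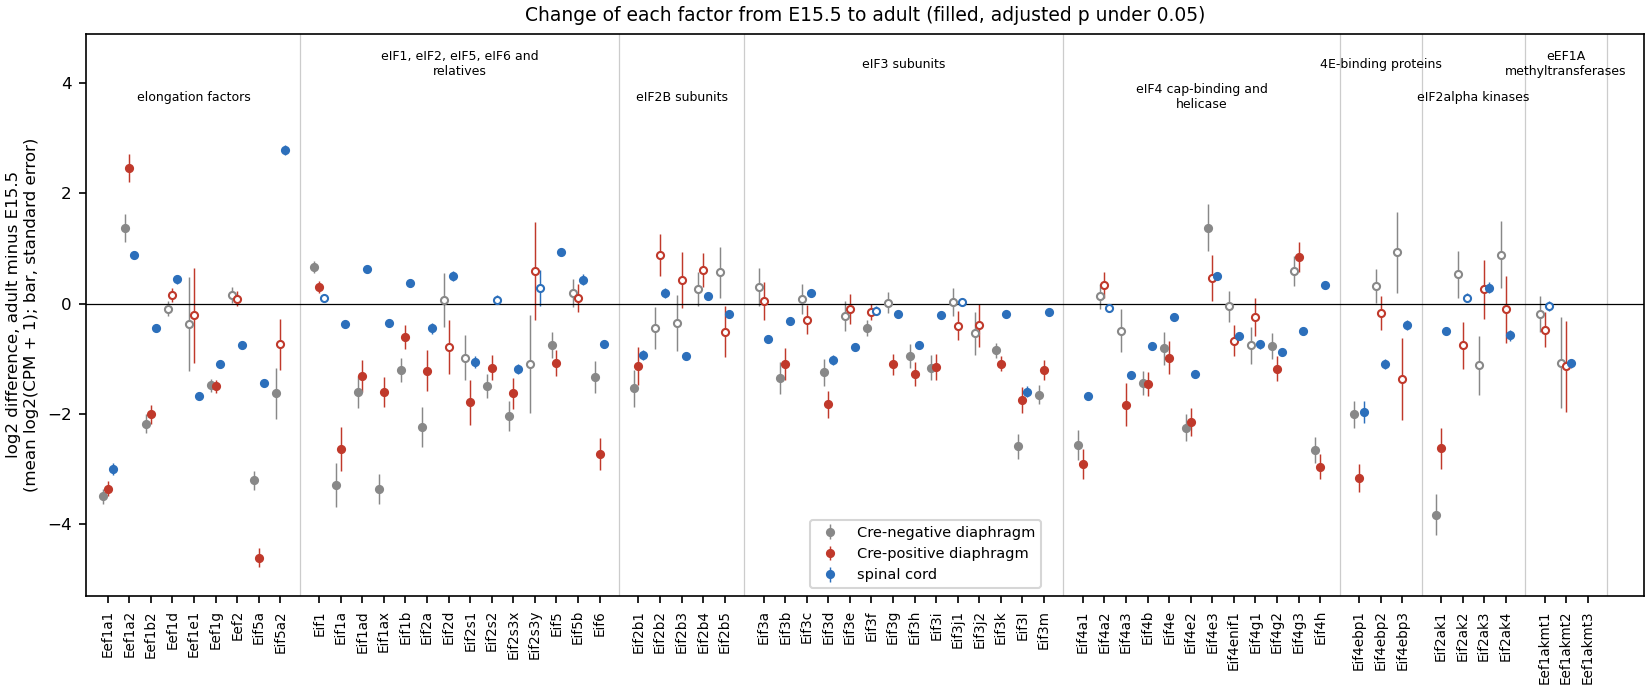
Difference between adult and E15.5 as log2(CPM + 1) (vertical axis, bars are standard errors) for each factor, grouped by role, in the Cre-negative diaphragm (grey), Cre-positive diaphragm (red) and spinal cord (blue). Filled points have a limma adjusted p under 0.05; Eef1akmt3 was not tested. Eef1a1 is low in all 3 series, and Eif5a2 is at 2.79 in the spinal cord alone.

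Among the elongation factors, Eef1a1 fell and Eef1a2 rose in all 3 series. Spinal cord Eef1a1 was at 2755, 3467 and 3000 CPM at E15.5, at 1457, 1727 and 1549 at P0.5, then 1186, 1235 and 1210 at P10, and the adults held 443, 326 and 387. No library overlapped between neighbouring ages. The adult level was 7.98-fold lower than that at E15.5 (log2 difference -3.00 ± 0.11 SE, limma adjusted p = 8.7e-12). Eef1a1 in the Cre-positive diaphragm went from 4137, 3577 and 4056 CPM at E15.5 to 403, 368 and 370 in the adult, a 10.3-fold fall (-3.36 ± 0.14, limma adjusted p = 4.3e-14). The Cre-negative diaphragm went from 5366, 5426 and 5313 to 486, 453 and 486 CPM, an 11.3-fold fall (-3.50 ± 0.14, limma adjusted p = 2.2e-14). The fall in the Cre-positive diaphragm was not shown to differ from that in the spinal cord (difference -0.36 ± 0.21, limma adjusted p = 0.14). Eef1a1 has many processed pseudogenes, and how their reads were assigned is not given in the sources used here, so its level is uncertain to that extent.

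Eef1a2, the neuronal and muscle form, was at 44.6, 53.8 and 48.5 CPM in the E15.5 spinal cord and at 93.6, 87.1 and 91.8 in the adult, 1.86-fold higher (0.88 ± 0.07, limma adjusted p = 7.5e-09). The course was not a steady one. At P0.5 the 3 libraries were at 12.9, 13.3 and 13.8 CPM, below every other spinal cord library, and at P10 they were at 75.5, 70.7 and 77.3. The fall to P0.5 (-1.80, limma adjusted p = 2.2e-11) and the rise to P10 (2.40, limma adjusted p = 2.0e-13) both passed the test. Eef1a2 in the Cre-positive diaphragm was at 2.98, 2.10 and 2.65 CPM at E15.5, 5.89, 8.18 and 5.91 at P0.5, 7.53, 8.07 and 7.52 at P10, and the adult libraries were at 19.3, 16.3 and 20.3. That is a 7.23-fold rise (2.46 ± 0.25, limma adjusted p = 5.4e-08). Cre-negative diaphragm libraries were at 9.44, 6.002 and 5.22 CPM at E15.5 and 19.8, 18.3 and 18.8 in the adult, 2.75-fold higher (1.37 ± 0.25, limma adjusted p = 9.8e-05). This last call was lost without the intermediate libraries (limma adjusted p = 0.096).

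The exchange between the 2 forms is seen in the log2 ratio of Eef1a2 to Eef1a1, each with 1 CPM added. The spinal cord ratio was -5.94 ± 0.04 at E15.5, -6.78 ± 0.12 at P0.5, -4.00 ± 0.09 at P10 and -2.06 ± 0.17 in adults. The ratio in the Cre-positive diaphragm was -10.10 ± 0.08, -8.10 ± 0.18, -7.01 ± 0.03 and -4.28 ± 0.15, and in the Cre-negative diaphragm -9.45 ± 0.39, -7.80 ± 0.26, -6.94 ± 0.12 and -4.58 ± 0.04. The mean ratio was higher at each later age in the diaphragm and was lowest at P0.5 in the spinal cord. From E15.5 to adult it changed by 3.88 in the spinal cord, 5.82 in the Cre-positive and 4.87 in the Cre-negative diaphragm. The exact two-sided permutation p was 0.1 in each, the smallest that 3 libraries against 3 can give. CPM are not scaled to transcript length, so the ratio's change can be read and its level cannot. The libraries come from pieces of tissue with several cell types, in which fewer cells of a type and less RNA per cell cannot be told apart.

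**Figure D3:**
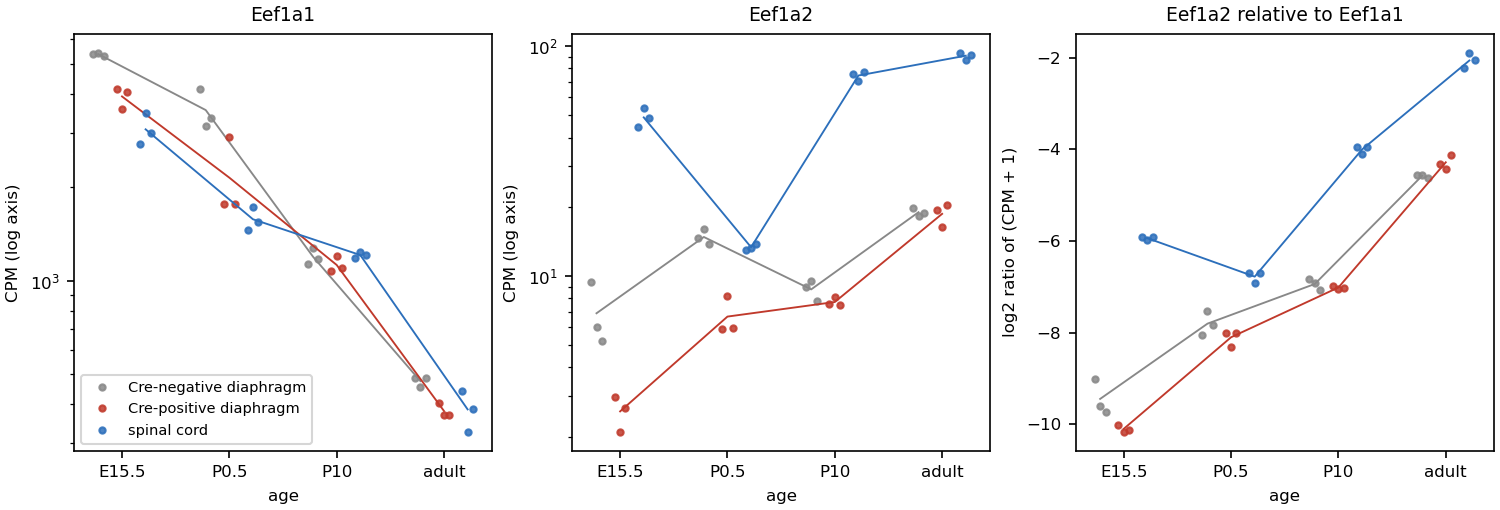
Eef1a1 (left) and Eef1a2 (middle) in CPM on log axes, and the log2 ratio of Eef1a2 to Eef1a1 with 1 CPM added (right), by age. Points are the 3 libraries of a group and lines join group means. Eef1a2 in the spinal cord (blue) is at 12.9 to 13.8 CPM at P0.5, below its other ages, and the ratio ends at -2.06 there and at -4.28 in the Cre-positive diaphragm (red).

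Eif5a and Eif5a2 encode forms of the hypusine-bearing factor that relieves stalled ribosomes, and they moved apart in the spinal cord. Eif5a was there at 1159, 986 and 1113 CPM at E15.5 and at 382, 412 and 405 in the adult (-1.44 ± 0.06, limma adjusted p = 4.4e-12). Eif5a2 was at 5.32, 4.33 and 4.92 CPM at E15.5, 5.12, 4.63 and 5.70 at P0.5, 23.0, 18.4 and 19.7 at P10 and, in adults, 41.0, 39.4 and 37.8, an 8.10-fold rise (2.79 ± 0.09, limma adjusted p = 2.2e-13). The first 2 ages overlapped, and each later age lay above the one before. Eif5a in the Cre-positive diaphragm went from 508, 336 and 482 CPM to 19.5, 14.3 and 17.0, a 26.1-fold fall (-4.61 ± 0.18, limma adjusted p = 1.3e-14), and in the Cre-negative diaphragm from 308, 354 and 358 to 38.7, 28.6 and 41.5 (-3.21 ± 0.18, limma adjusted p = 2.9e-12). The highest Eif5a2 level in any diaphragm library was 4.999 CPM. Its adult Cre-negative libraries were at 0, 0.0114 and 0 CPM, below those at E15.5 (1.25, 2.45 and 2.90; limma adjusted p = 0.0051, and 0.13 without the intermediate libraries). Its Cre-positive difference was -0.74 ± 0.46 (limma adjusted p = 0.19).

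**Figure D4:**
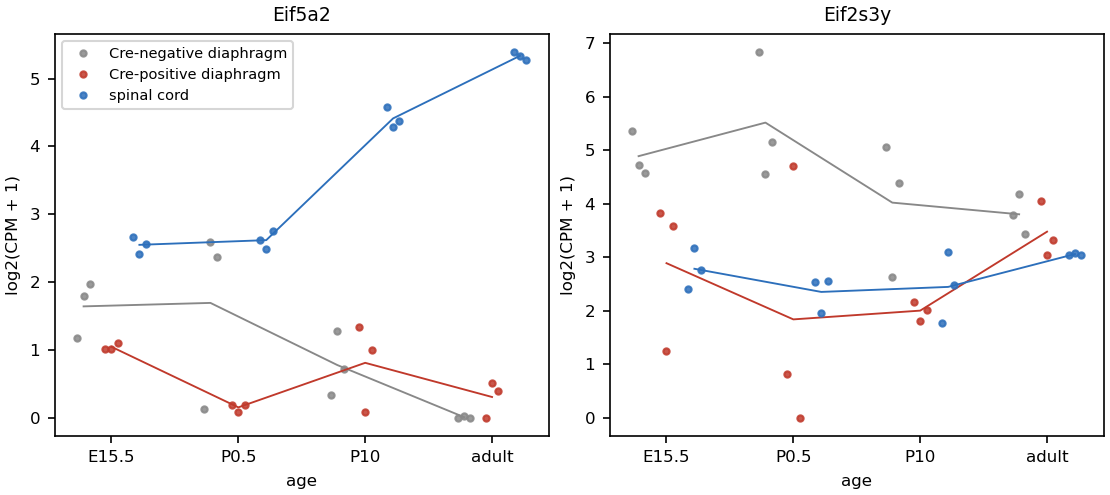
Eif5a2 (left) and Eif2s3y (right) as log2(CPM + 1) by age. Points are the 3 libraries of a group and lines join group means. Eif5a2 climbs after P0.5 in the spinal cord (blue) and stays at or below 4.999 CPM in the diaphragm. The P0.5 Cre-positive diaphragm libraries (red) of Eif2s3y lie at 0.751, 25.0 and 0 CPM.

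Eef2, the translocase, was at 620, 661 and 636 CPM in the E15.5 spinal cord, at 718, 713 and 704 at P0.5 and at 410, 349 and 377 in the adult (adult against E15.5 -0.76 ± 0.07, limma adjusted p = 3.4e-08). Its Cre-positive diaphragm level was 746, 522 and 719 CPM at E15.5 and 763, 647 and 687 in the adult, which overlap (0.09 ± 0.14, limma adjusted p = 0.61). With RLE scaling Eef2 was instead called higher there (0.66, limma adjusted p = 4.6e-04) and in the Cre-negative diaphragm (0.55, limma adjusted p = 0.0021). Of the genes for the exchange factor that recharges eEF1A, Eef1g fell in all 3 series, from 556, 694 and 608 to 309, 274 and 283 CPM in the spinal cord (-1.09), from 804, 699 and 789 to 258, 273 and 277 in the Cre-positive diaphragm (limma adjusted p = 8.9e-10) and from 941, 897 and 897 to 330, 316 and 334 in the Cre-negative one (-1.48). Eef1b2 fell by 2.01 and 2.18 on the log2 scale in the Cre-positive and Cre-negative diaphragm. Its spinal cord call (-0.44 ± 0.05) did not hold with RLE scaling (0.01, limma adjusted p = 0.9). Eef1d rose in the spinal cord (0.44 ± 0.08, limma adjusted p = 7.0e-05) and was at 0.16 ± 0.13 in the Cre-positive diaphragm, where RLE scaling gave a call (0.73, limma adjusted p = 0.0013).

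Eef1e1, which is named as an elongation factor and encodes a scaffold of the multi-tRNA synthetase complex, showed a single step in the spinal cord. It was at 281, 247 and 266 CPM at E15.5 and 264, 263 and 260 at P0.5, then at 73.6, 87.2 and 77.2 at P10, and adults had 81.2, 83.5 and 80.2. The earlier 2 ages lay entirely above the later 2, and the step from P0.5 to P10 was -1.72 while the others were -0.01 and 0.04. Cre-positive diaphragm libraries were at 24.9, 25.2 and 25.3 CPM at E15.5 and 19.8, 23.7 and 21.5 in the adult, without overlap and without a call (-0.21 ± 0.86, limma adjusted p = 0.87). The Cre-negative difference was -0.37 ± 0.86. Both errors are pooled over all diaphragm groups, among them the Cre-negative P0.5 group with 1 library at 0 CPM beside 55.2 and 46.4.

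In the eIF4 group, 9 of 12 genes were lower and 2 higher in the adult spinal cord, and 7 lower and 1 higher in the adult Cre-positive diaphragm. The shares of all genes were 58.1% lower and 26.3% higher, and 36.2% and 10.9%. RLE scaling gave 7 lower and 4 higher, and 6 lower and 3 higher. In the Cre-negative diaphragm 6 were lower and 1 higher, where 34.9% of all genes were lower and 16.3% higher. RLE scaling gave 4 lower and 3 higher there. Eif4a1 and Eif4a2 encode alternative forms of the RNA helicase and kept different courses. Eif4a1 went from 332, 307 and 344 CPM to 111, 97.8 and 98.9 in the spinal cord (-1.67 ± 0.07, limma adjusted p = 1.6e-12). It went from 174, 131 and 166 to 26.8, 15.48 and 19.0 in the Cre-positive diaphragm (-2.91 ± 0.27, limma adjusted p = 1.3e-08). Eif4a2 in the spinal cord was at 492, 466 and 494 CPM at E15.5, 267, 283 and 314 at P0.5, 377, 340 and 362 at P10 and, as adults, 467, 455 and 449.5. It thus fell to P0.5 (-0.75) and rose over the next 2 steps (0.32 and 0.35), and adult and E15.5 were not called apart (-0.08 ± 0.06, limma adjusted p = 0.23). With RLE scaling the adult value turned to 0.37 and was called (limma adjusted p = 4.4e-05). Diaphragm Eif4a2 was at 0.34 ± 0.23 (Cre-positive) and 0.13 ± 0.23 (Cre-negative), without a call, and RLE scaling gave 0.90 and 0.51 with one (limma adjusted p = 6.9e-04 and 0.033).

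Eif4h, which stimulates the helicase, moved in opposite directions in the tissues. It was at 195, 204 and 187 CPM in the E15.5 spinal cord and 257, 236 and 250 in the adult (0.34 ± 0.05, limma adjusted p = 2.4e-05). Its Cre-positive diaphragm level went down at every age, from 171, 164 and 177 CPM to 84.1, 90.4 and 83.8, then 47.8, 50.9 and 48.6, and then 20.4, 22.7 and 20.1, with no overlap between ages (adult against E15.5 -2.96 ± 0.23, limma adjusted p = 1.1e-09). The Cre-negative diaphragm fell as well, from 155, 189 and 196 to 28.6, 46.3 and 15.6 CPM (-2.66). Eif4e, the cap-binding protein, was lower in the adult in all 3 series with library totals (-0.25, -0.98 and -0.81). With RLE scaling it turned to 0.20 in the spinal cord (limma adjusted p = 0.0038), and both diaphragm calls were lost (-0.42, limma adjusted p = 0.31, and -0.43, limma adjusted p = 0.29). Of the scaffold genes, Eif4g1 fell in the spinal cord (-0.74) and was at -0.24 ± 0.34 in the Cre-positive diaphragm. Eif4g2, which encodes a scaffold that lacks the cap-binding part, fell in all 3 series (-0.88, -1.18 and -0.77), but both diaphragm calls were lost without the intermediate libraries (limma adjusted p = 0.072 and 0.26), and the Cre-negative one with RLE scaling (0.077). Eif4g3 had -0.50 in the spinal cord, lost with RLE scaling (-0.06, limma adjusted p = 0.39), and 0.85 in the Cre-positive diaphragm, lost without the intermediate libraries (limma adjusted p = 0.27). RLE scaling also called Eif4g3 in the Cre-negative diaphragm (0.95, limma adjusted p = 8.9e-04), where library totals gave 0.59 ± 0.27.

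Eif4ebp1, the best known inhibitor of Eif4e, was highest at P0.5 in the diaphragm and lower in the spinal cord than in the Cre-positive diaphragm at every age. Its Cre-positive diaphragm level was 320, 309 and 317 CPM at E15.5, 662, 438 and 659 at P0.5, 195, 175 and 205 at P10 and then 24.2, 41.0 and 39.7. For the Cre-negative diaphragm the same ages were at 232, 234 and 232, then 600, 511 and 552, then 274, 230 and 267, and then 65.5, 32.2 and 87.1 CPM. No ages overlapped in the Cre-positive series, and in the Cre-negative one E15.5 and P10 did. Spinal cord libraries were at 50.7, 55.2 and 53.1 CPM at E15.5 and 14.4, 10.3 and 14.0 in the adult. The adult was lower than E15.5 in the spinal cord (-1.97 ± 0.20, limma adjusted p = 3.3e-06) and in the Cre-positive (-3.17 ± 0.25, limma adjusted p = 1.1e-09) and Cre-negative diaphragm (-2.01 ± 0.25, limma adjusted p = 8.5e-07). Eif4ebp2 fell in the spinal cord (-1.10 ± 0.09) and was not called in the Cre-positive (-0.17 ± 0.30) or Cre-negative diaphragm (0.32 ± 0.30). Eif4ebp3 was at -0.39 ± 0.09 in the spinal cord, 0.00 with RLE scaling, and was not called in the Cre-positive (-1.37 ± 0.74) or Cre-negative diaphragm (0.93 ± 0.74). These 2 errors are pooled over all diaphragm groups, among them the Cre-negative E15.5 libraries at 0.0611, 13.6 and 20.5 CPM. Cre-positive Eif4ebp3 itself went from 23.9, 15.0 and 22.5 CPM at E15.5 to 11.2, 5.52 and 5.74 in the adult, without overlap.

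**Figure D5:**
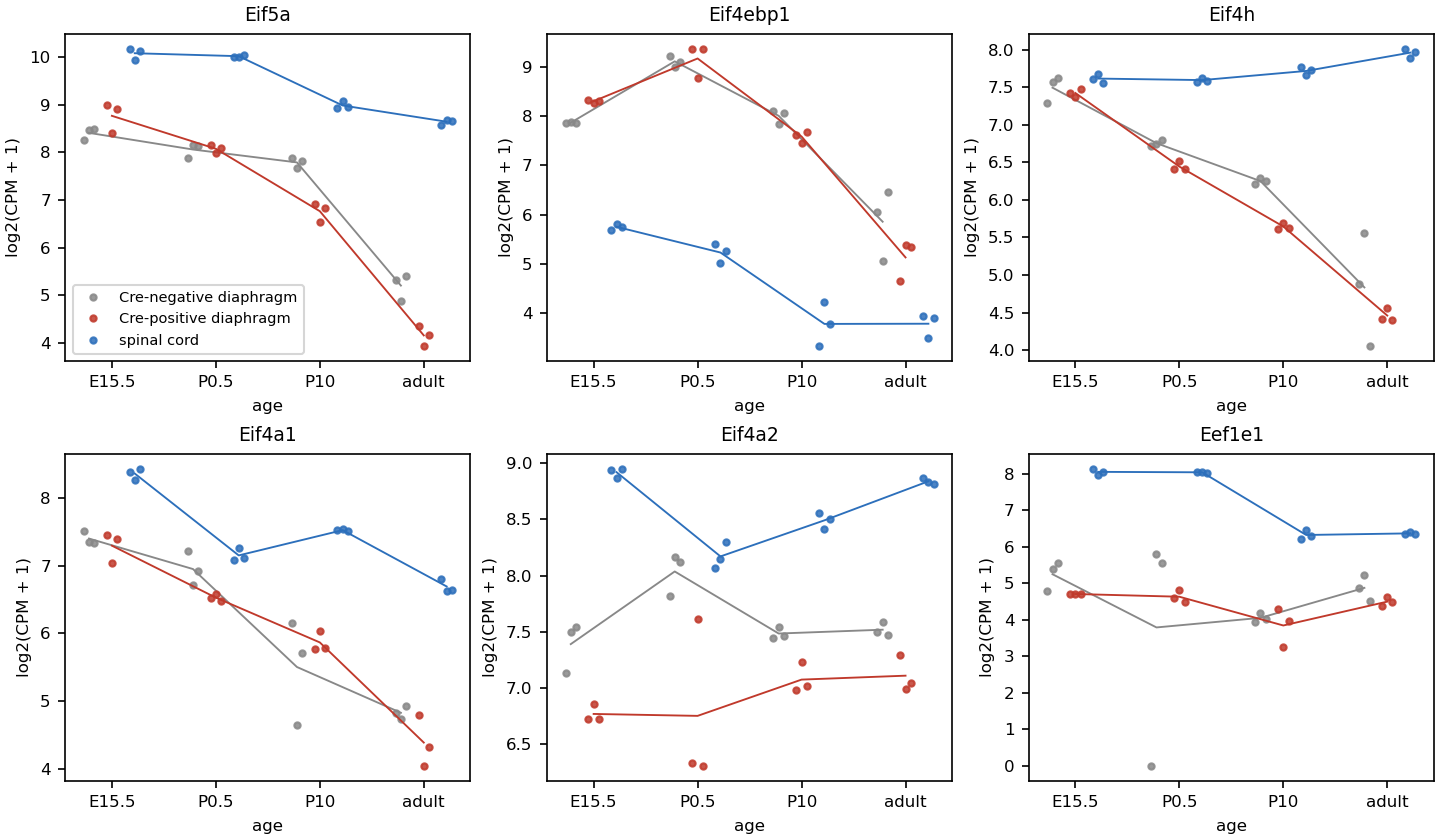
Level as log2(CPM + 1) by age for Eif5a, Eif4ebp1, Eif4h, Eif4a1, Eif4a2 and Eef1e1; each panel has its own vertical range. Points are the 3 libraries of a group and lines join group means. Eif4ebp1 is highest at P0.5 in the diaphragm (grey and red), Eif4h separates the spinal cord (blue) from the diaphragm with age, and Eef1e1 in the spinal cord drops between P0.5 and P10.

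Among the genes of the start-site and recycling factors, 5 of 14 were higher and 6 lower in the adult spinal cord, against 1 higher and 10 lower in the Cre-positive diaphragm. Of all genes 26.3% were higher and 58.1% lower in the former comparison, and 10.9% and 36.2% in the latter. RLE scaling gave 7 higher and 3 lower, and 2 higher and 7 lower. In the Cre-negative diaphragm 1 was higher and 9 lower, where 16.3% of all genes were higher and 34.9% lower. RLE scaling gave 2 higher and 8 lower there. Eif5, which triggers GTP hydrolysis by eIF2, rose in the spinal cord from 159, 170 and 167 to 316, 320 and 317 CPM (0.94 ± 0.05, limma adjusted p = 8.6e-11), with P10 between them at 222, 209 and 208. Cre-positive diaphragm libraries went from 125, 155 and 132 to 99.7, 44.6 and 58.9 CPM (-1.08 ± 0.24, limma adjusted p = 8.1e-04), a call lost without the intermediate libraries (limma adjusted p = 0.08). Cre-negative Eif5 was at 109, 158 and 172 CPM at E15.5 and 84.9, 94.5 and 77.7 in the adult. Eif1, which guards start codon choice, was at 0.10 ± 0.05 in the spinal cord (limma adjusted p = 0.061) and was called there with RLE scaling (0.55, limma adjusted p = 3.8e-07). Cre-negative diaphragm libraries of Eif1 rose from 909, 887 and 890 to 1427, 1218 and 1664 CPM (0.67 ± 0.11, limma adjusted p = 3.1e-05), and in the Cre-positive diaphragm the difference was 0.30 ± 0.11 (limma adjusted p = 0.03, and 0.28 without the intermediate libraries). Its paralogue Eif1b rose in the spinal cord (0.37 ± 0.07, limma adjusted p = 3.0e-04) and fell in the Cre-negative diaphragm (-1.20 ± 0.22, limma adjusted p = 8.9e-05). Cre-positive diaphragm Eif1b was at -0.61 ± 0.22 (limma adjusted p = 0.025), a call that RLE scaling ended (-0.05, limma adjusted p = 0.89).

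Eif1a and Eif1ax, near-identical copies of the scanning factor eIF1A whose reads could be split between them, fell in the diaphragm. Eif1ax went from 160, 146 and 159 to 47.4, 52.3 and 50.3 CPM in the Cre-positive diaphragm (-1.61 ± 0.27, limma adjusted p = 5.5e-05) and from 247, 220 and 212 to 20.9, 36.4 and 11.8 in the Cre-negative one (-3.37 ± 0.27, limma adjusted p = 1.7e-09). Eif1a fell there by 2.64 and 3.29 on the log2 scale. Both were called lower in the spinal cord (-0.37 and -0.35), and RLE scaling turned them to 0.07 and 0.10 without a call. Eif6, which keeps ribosomal subunits apart, fell in all 3 series (-0.74, -2.73 and -1.33); the Cre-negative call had a limma adjusted p of 0.059 without the intermediate libraries. Of the eIF2 subunits, Eif2s1 fell in the spinal cord (-1.06 ± 0.11) and Cre-positive diaphragm (-1.79 ± 0.41, limma adjusted p = 0.0012, and 0.098 without the intermediate libraries), and was at -0.98 ± 0.41 in the Cre-negative one (limma adjusted p = 0.052). Eif2s2 was at 0.07 ± 0.08 in the spinal cord and at -1.16 ± 0.22 and -1.49 ± 0.22 in the Cre-positive and Cre-negative diaphragm, both called (limma adjusted p = 1.6e-04 and 7.6e-06). With RLE scaling the Cre-positive call was lost (-0.60, limma adjusted p = 0.054) and the spinal cord was called (0.52, limma adjusted p = 1.6e-04). Eif2s3x, on the X chromosome, fell in all 3 series (-1.19, -1.63 and -2.04).

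Of the eIF2B subunits, which recharge eIF2, 3 of 5 were lower and 2 higher in the adult spinal cord, and 1 was lower in each diaphragm series. With 58.1% of all genes lower and 26.3% higher in the spinal cord, these counts are near the background there, and RLE scaling gave 2 lower and 3 higher. Of all genes 36.2% were lower and 10.9% higher in the Cre-positive diaphragm, and 34.9% and 16.3% in the Cre-negative one. RLE scaling gave 2 higher and none lower in the Cre-positive diaphragm, and 1 lower and none higher in the Cre-negative one. Eif2b3 fell in the spinal cord (-0.95 ± 0.08, limma adjusted p = 1.9e-08) and was not called in the Cre-positive diaphragm (0.43 ± 0.51). Eif2b2 stood out at P0.5 in the spinal cord, where its libraries were at 41.4, 36.7 and 35.6 CPM against 17.02, 14.8 and 18.7 at E15.5 and 16.2, 13.3 and 15.1 at P10. Of the eIF2alpha kinases, Eif2ak1, the haem-regulated kinase known from red cell precursors, fell in the Cre-positive diaphragm from 24.8, 21.7 and 24.9 to 5.87, 1.57 and 2.63 CPM (-2.63 ± 0.37, limma adjusted p = 4.4e-06). The Cre-negative fall was from 34.1, 31.4 and 30.5 to 1.46, 0.503 and 2.36 CPM (-3.83 ± 0.37, limma adjusted p = 1.8e-08). All 8 of 8 erythroid marker genes fell in both diaphragm series over the same interval. Their summed level in the Cre-positive diaphragm was 129500 to 216200 CPM at E15.5 and 11380 to 22630 in the adult, and their part in the Eif2ak1 result was not tested. Spinal cord Eif2ak1 went from 29.7, 28.2 and 29.4 to 19.8, 20.3 and 21.4 CPM (-0.49), not called with RLE scaling (-0.05, limma adjusted p = 0.44).

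Among the other eIF2alpha kinases, Eif2ak2, the kinase that senses double-stranded RNA, was not called in the spinal cord (0.11 ± 0.08), the Cre-positive diaphragm (-0.76 ± 0.42) or the Cre-negative diaphragm (0.53 ± 0.42), and RLE scaling called it in the spinal cord (0.42, limma adjusted p = 2.0e-04). Eif2ak3, the kinase of the endoplasmic reticulum, rose in the spinal cord (0.29 ± 0.10, limma adjusted p = 0.017, and 0.082 without E15.5 replicate 2 or 0.1 without adult replicate 2) and was not called in the Cre-positive (0.26 ± 0.54) or Cre-negative diaphragm (-1.12 ± 0.54). Eif2ak4, which senses amino acid shortage, fell in the spinal cord (-0.57 ± 0.10) and was not called in the diaphragm (-0.10 ± 0.61 and 0.89 ± 0.61).

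Of the subunits of eIF3, the largest initiation complex, 10 of 13 were lower and 1 higher in the adult spinal cord with library totals, and RLE scaling turned this to 5 lower and 8 higher. Of all genes 58.1% were lower there, and the median difference of the subunits was -0.20 against -0.38 for all genes. In each diaphragm series 8 of 14 were lower and none higher, where 36.2% (Cre-positive) and 34.9% (Cre-negative) of all genes were lower. RLE scaling gave 6 lower and none higher in the Cre-positive and 7 lower and 1 higher in the Cre-negative diaphragm. Eif3l had the largest fall of them in the spinal cord, from 91.8, 82.9 and 88.3 to 35.3, 23.7 and 26.8 CPM (-1.60 ± 0.10, limma adjusted p = 7.0e-10), most of it between P10 and adult (-1.26). It fell by 1.75 in the Cre-positive and 2.59 in the Cre-negative diaphragm on the log2 scale. Eif3j1 and Eif3j2 are near-identical copies; Eif3j2 had at most 2.78 CPM and was not tested in the spinal cord. Of the eEF1A methyltransferases, 1 of 2 tested was lower in the adult spinal cord, where 58.1% of all genes were lower. None was called in the diaphragm, where 36.2% (Cre-positive) and 34.9% (Cre-negative) of all genes were lower. Eef1akmt3 had at most 0.606 CPM and was tested nowhere.

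Between neighbouring ages in the spinal cord, the factors moved both ways. From E15.5 to P0.5, 36 of 62 were lower and 7 higher, where 27.9% of all genes were higher and 44.4% lower, and RLE scaling gave 17 higher and 25 lower. From P0.5 to P10, 26 were lower and 20 higher, where 35.2% of all genes were higher and 43.5% lower, and RLE scaling gave 27 higher and 25 lower. From P10 to adult, 21 were lower and 21 higher, where 23.6% of all genes were higher and 44.3% lower, and RLE scaling gave 33 higher and 14 lower. With RLE scaling 71.7%, 79.4% and 68.9% of all genes were called over these steps, in that order. Eef1a1 fell at each step (-0.96, -0.38 and -1.66), although the middle call had a limma adjusted p of 0.051 without the intermediate libraries. Eif5a fell at the later 2 steps (-1.04 and -0.34) and Eif5a2 rose at both (1.80 and 0.92). Eif4e3, a cap-binding relative of Eif4e, was also lowest at P0.5, with -0.99 into it and 1.28 out of it. Oligodendrocyte marker genes moved over the same ages: their summed level was 91.4 to 121 CPM at E15.5, 913 to 989 at P0.5, 15770 to 21200 at P10 and, in adults, 2481 to 4162. Their part in these results was not tested.

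The change from E15.5 to adult was then compared between the Cre-positive diaphragm and the spinal cord. It was more negative in the diaphragm for 28 of 63 factors and more positive for 8, where 33.5% of all genes were more negative and 24.5% more positive, with a median of -0.44 for the factors and -0.18 for all genes. RLE scaling gave 24 and 12, with 57.8% of all genes called. The change was more negative in the diaphragm for Eif5a2 (-3.53 ± 0.30, limma adjusted p = 9.2e-09), Eif4h (-3.31 ± 0.10, limma adjusted p = 7.0e-15) and Eif5a (-3.17 ± 0.19, limma adjusted p = 4.1e-11). It was also more negative for Eif1a (-2.28), Eif2ak1 (-2.14) and Eif5 (-2.02). It was more positive for Eef1a2 (1.58 ± 0.18, limma adjusted p = 4.3e-07), Eef1e1 (1.47 ± 0.24), Eif2b3 (1.38 ± 0.37), Eif4g3 (1.35 ± 0.28) and Eef2 (0.85 ± 0.18). Without the intermediate libraries 15 were more negative and 4 more positive, where 33% of all genes were called. The call of Eif2b3 was then lost (limma adjusted p = 0.086), and so was that of Eif4ebp1 (-1.20 ± 0.30 with all libraries, limma adjusted p = 0.0021, and 0.061 without).

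At a given age, more factors were lower than higher in the Cre-positive diaphragm compared with the spinal cord when library totals were the scale. With RLE scaling, edgeR and DESeq2 more were higher at E15.5 and P0.5, and with edgeR the numbers were equal at P10 and 1 more was higher in the adult. The counts of lower and higher factors of 63 were 30 and 10 at E15.5, 37 and 11 at P0.5, 40 and 7 at P10, with 41 and 7 among adults. Of all genes, 52.1% were lower and 21.5% higher at E15.5, 56.9% and 18.4% at P0.5, 53.1% and 19.9% at P10, and, among adults, 55.3% and 19.5%. RLE scaling changed the lower and higher counts to 19 and 27, 18 and 25, 25 and 18, and 26 and 19, and the median over all genes went from -0.58, -0.80, -0.63 and -0.72 to -0.11, -0.21, -0.20 and -0.23. Called in either direction with RLE scaling were 67.9%, 71.2%, 69% and 72.3% of all genes. Lower and higher counts with edgeR were 16 and 27, 11 and 29, 22 and 22, and 23 and 24. With DESeq2 they were 18 and 27, 19 and 25, 25 and 17, and 25 and 20. Of all genes 62.7%, 67.6%, 66.6% and 72.3% were called with edgeR, and 66%, 70.8%, 69.3% and 75.2% with DESeq2. The 4E-binding proteins went the other way, with 2 of 3 higher in the diaphragm at each age: Eif4ebp1 was 5.95-fold higher at E15.5, 15.9-fold at P0.5, 14.5-fold at P10 and 2.71-fold in the adult. Eif5a was lower in the diaphragm by a log2 difference that went from -1.31 at E15.5 to -4.49 in the adult, and Eif5a2 by one that went from -2.47 at P0.5 to -5.03 in the adult. Eef1e1 was lower at all ages (-3.34 at E15.5 and -1.87 in the adult). Eef1a1 was higher in the diaphragm at E15.5 (0.36) and P0.5 (0.41) and was not called at P10 (-0.11) or in the adult (-0.01). Eef1a2 was lower at E15.5 (-3.81), P10 (-3.12) and in the adult (-2.23). At P0.5, where the spinal cord level dips, its difference of -0.92 was not called with RLE scaling (-0.18, limma adjusted p = 0.097) and was 0.05 with edgeR. Skeletal muscle marker genes summed to 141900 to 143800 CPM in the adult Cre-positive diaphragm and to 20.5 to 35.5 in the adult spinal cord, and neuronal markers to 5.89 to 10.4 and 15190 to 15340 CPM; their part in these differences was not tested.

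The question behind the Cre comparison is which RNA the tagged ribosomes add in the diaphragm. Factors were called at every age between the Cre-positive and Cre-negative diaphragm, and 1 of these calls remained without the intermediate libraries. At E15.5, 1 factor was higher and 6 were lower, where 4.88% of all genes were higher and 6.11% lower. At P0.5, 5 were higher and 15 lower, where 12.1% of all genes were higher and 15.7% lower. RLE scaling turned the P0.5 split to 12 and 7, with the all-gene median at 0.20 in place of -0.01. At P10 none was higher and 1 was lower, where 0.419% of all genes were higher and 1.03% lower, and in the adult 3 were higher and 4 lower, where 3.06% of all genes were higher and 8.92% lower. RLE scaling gave 1 higher and 2 lower at E15.5, and 5 higher and 2 lower in the adult. Of all genes 9.84%, 28.1% and 12.7% were called with RLE scaling at E15.5, P0.5 and adult age. Without the intermediate libraries no factor was called at E15.5, P10 or adult age by limma (4, 2 and 5 had an unadjusted p under 0.05), and 1 was at P0.5 (9 had one). Of all genes tested, 0.0527% were then called at E15.5, 0.813% at P0.5, 0% at P10 and 0.105% in the adult. The loss of calls was thus shared by genes at large. With all libraries, 15, 28, 8 and 22 factors had an unadjusted p under 0.05 at the 4 ages by limma. By edgeR 12, 25, 4 and 17 had one. At that threshold a share of 0.05 of tests passes even where nothing differs. Shares of all genes with an unadjusted p under 0.05 were not taken, so these unadjusted counts lack a background. The factors called at E15.5 were the eIF3 subunits Eif3e (-1.25), Eif3m (-0.64) and Eif3g (0.64), with Eif1b (-0.86), Eif2ak3 (-1.81), Eef1a1 (-0.46) and Eef1a2 (-1.11). Of these, limma no longer called Eif3m, Eif1b, Eif2ak3 and Eef1a1 with RLE scaling. Those called in the adult were Eif6 (-1.38), Eif3e (-1.13), Eif5a and Eif1 (-0.62), which were lower, and Eif1ax (1.22), Eif2b2 (1.22) and Eef1d (0.47), which were higher; Eif3e and Eif1 were not called with RLE scaling.

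The P0.5 call that remained was that of Eif1ad, an eIF1A-like protein, which was at 0.0440, 0 and 0 CPM in the Cre-negative and 16.8, 10.3 and 15.3 in the Cre-positive diaphragm (limma adjusted p = 1.6e-08 with all libraries). Eef1akmt2, a methyltransferase of eEF1A, was at 0, 0.201 and 0.468 CPM against 9.33, 8.57 and 10.6 (limma adjusted p = 0.0088). Genes at 0 were common in these Cre-negative libraries, at 46.2%, 37.6% and 35.2% of the table, against 18.6%, 30.9% and 19.6% in the Cre-positive ones. The part of this in the 2 calls was not tested. Eef1a1 was at 4146, 3152 and 3340 CPM in the Cre-negative P0.5 diaphragm and 1761, 2910 and 1773 in the Cre-positive one, without overlap (-0.75, limma adjusted p = 5.4e-04, and -0.33 with RLE scaling, limma adjusted p = 0.063). Cre-positive replicates 1 and 3 lay close together there in other factors too. Eif4a2 was at 79.9 and 78.2 CPM in them beside 195 in replicate 2, and Eif4ebp1 at 662 and 659 beside 438. Replicate 1 was the intermediate library of this group. The spread within the group thus rests mostly on replicate 2, and whether replicates 1 and 3 are separate samples was not tested. Hepatocyte markers were summed at 1661 to 13270 CPM in the Cre-positive and 160 to 170 in the Cre-negative P0.5 diaphragm, and 8 of 8 were called higher; their part in these results was not tested.

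Eif2s3y, the Y-linked copy of an eIF2 subunit, was at 113, 22.5 and 34.7 CPM in the Cre-negative and 0.751, 25.0 and 0 CPM in the Cre-positive P0.5 diaphragm (-3.68, limma adjusted p = 0.0043, and 0.14 with edgeR). The Y-linked gene Ddx3y was at 47.3, 15.9 and 18.6 and at 0.893, 26.1 and 0 CPM in the same libraries, so both genes were highest in the same library of each group. Y-linked marker genes, Eif2s3y among them, summed to 38.5 to 161 CPM in the Cre-negative and 0 to 53.1 in the Cre-positive libraries. The labels used here do not give the sex of the animals, and its part in the Eif2s3y call was not tested. Eif2s3y and its X-linked partner Eif2s3x are close copies whose reads could be split. Eif5a was the only factor called at P10, at 235, 203 and 223 CPM in the Cre-negative and 120, 92.4 and 113 in the Cre-positive diaphragm (-1.02, limma adjusted p = 0.0028, and 0.058 with edgeR). It was called lower in the adult as well, at 38.7, 28.6 and 41.5 against 19.5, 14.3 and 17.0 CPM (-1.05, limma adjusted p = 4.1e-04). Neither comparison overlapped, and both calls were lost without the intermediate libraries.

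Of 40 other genes of translation and its control, 14 were higher and 19 lower in the adult than in the E15.5 spinal cord, 7 and 12 in the Cre-positive and 9 and 6 in the Cre-negative diaphragm. Of all genes 26.3% were higher and 58.1% lower, 10.9% and 36.2%, and 16.3% and 34.9%. RLE scaling changed the counts to 23 higher and 11 lower, 15 and 8, and 13 and 5, so the split of this list in the spinal cord and Cre-positive diaphragm turned with the scale. The poly(A)-binding protein gene Pabpc1 fell in all 3 series (-1.81, -1.85 and -2.07). Ppp1r15a, whose product restores eIF2 by removing the phosphate that the kinases add, fell by 3.95 in the Cre-positive and 5.36 in the Cre-negative diaphragm on the log2 scale. Ddit3, a transcription factor of the stress response downstream of eIF2alpha kinases, rose (1.19, 2.34 and 3.58). Mknk2, a kinase of eIF4E, fell in the spinal cord (-1.30) and rose in the Cre-positive diaphragm (1.61); it also rose in the Cre-negative one.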

How the data were processed

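The deposited table holds values in CPM for 18845 genes in 36 libraries, and each column sums to 1000000. Bowtie2 2.2.5, RSEM 1.2.12 and the mm10 build are named in the submitters' processing notes, with no roles given. Dividing each library by its smallest step gave whole reads (within 0.1) for 100% of values; the depth of 1 library, P0.5 Cre-positive diaphragm replicate 3, is an estimate. The members and gene lists were chosen with earlier results of these data known.

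Tests used limma 3.58.1 in R 4.3.3 (trend, robust) on log2(CPM + 1), which understates the changes of low genes, for genes with at least 1 CPM in 3 or more libraries of the fit, with Benjamini-Hochberg adjusted p under 0.05 over all genes tested. One fit held the 12 spinal cord libraries, one the 24 diaphragm libraries, and one the spinal cord with the Cre-positive diaphragm. Standard errors pool the spread of all groups in a fit, so they do not measure that of the compared groups alone. The Eef1a ratio was tested by exact permutation. The procedure was also run on simulated data, which gave all genes the same spread beyond counting error and held no intermediate libraries. That run checks the calculation alone, and the error rate in these libraries was not tested.

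Alternatives were a pseudocount of 0.1, no filter, RLE size factors, edgeR 4.0.16 and DESeq2 1.42.0 on the recovered counts, fits of the compared groups alone, the replicate number as a block, leaving out each replicate and leaving out the intermediate libraries. Named by rule were the main factors (eEF1A, eEF1, eEF2, eIF1, eIF2, eIF4, eIF5, eIF5A, eIF6, 4E-binding proteins and eIF2alpha kinases) whatever their result. The rule also allowed, in each comparison, up to 5 called members a direction with the largest differences and at least 10 CPM in the higher group. Not every member that this second part admits is given, so those named are a selection. Eef1akmt1, called higher at P0.5 in the Cre comparison, is 1 that was left out. Eif2ak1, Eif2b2, Eef1akmt2 and Eif3j2 values at single ages, and the libraries that stood apart, were singled out after their values were seen. No transcript lengths or protein sequences were used here, so levels of different genes are not compared.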

Additional observations from a re-analysis of the deposited data

Results flagged for a closer look

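The change from E15.5 to adult differed between the Cre-positive diaphragm and the spinal cord by the test of that difference for 36 of 63 factors (57.1%). Of all genes tested 33.5% were more negative and 24.5% more positive in the diaphragm, so the share of factors was near that of genes at large. The differences, diaphragm minus spinal cord on the log2 scale, were 1.58 for Eef1a2, 1.47 for Eef1e1, 1.38 for Eif2b3, 1.35 for Eif4g3 and 0.85 for Eef2. They were -3.53 for Eif5a2, -3.31 for Eif4h, -3.17 for Eif5a, -2.28 for Eif1a, -2.14 for Eif2ak1, -2.02 for Eif5 and -1.20 for Eif4ebp1. In the spinal cord Eif5, Eif4h and Eif5a2 rose. In the Cre-positive diaphragm Eif5 and Eif4h fell, and Eif5a2 was not called.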

How the results depend on the processing

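With 3 libraries a group and an intermediate library in each, the Cre comparisons are the least secure. Eif5a2, Eif1ad, Eef1akmt2 and Eif2s3y are limited in the diaphragm, where some libraries hold 3 reads or fewer of them. Other diaphragm libraries held many reads of the last 3. Eef1akmt2 had 1511, 0 and 2641 reads in the adult Cre-negative libraries. At P0.5, Eif1ad had 3, 0 and 0 reads in the Cre-negative and 1656, 888 and 1514 in the Cre-positive libraries. The cause of such gaps was not tested. Depth was not lower in the diaphragm, at 68.2 to 107 M reads against 63.7 to 71.8 M in the spinal cord. Without the intermediate libraries the called factors numbered 22 in the Cre-negative diaphragm with age (23.7% of all genes). They numbered 19 for the age change between tissues (33% of all genes). In the Cre comparisons they numbered 0 at E15.5, 1 at P0.5, 0 at P10 and 0 in the adult. Of all genes 0.0527%, 0.813%, 0% and 0.105% were then called at these ages. At E15.5 the Cre count was 3 with RLE scaling (9.84% of all genes) and 3 with edgeR (5.1%). At P0.5 it was 5 with only the compared groups fitted (11.9% of all genes). At P10 it was 2 without the filter (2.1% of all genes) and 11 with only the compared groups fitted (10.4%). It was 0 there with edgeR (0.354% of all genes), where 4 factors had an unadjusted p under 0.05. In the adult it was 12 with DESeq2 (20.5% of all genes). The cause of these differences was not tested, except that the fits without intermediate libraries or with the compared groups alone hold fewer libraries. Leaving out the best-matched library of a group also tends to widen the spread within it.

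Leaving out 1 library at a time gave 50 to 52, 38 to 43, 44 to 47 and 35 to 41 called factors in the spinal cord (adult against E15.5, then the 3 steps). It gave 33 to 35 and 31 to 35 in the Cre-positive and Cre-negative diaphragm. Between tissues it gave 36 to 38, 43 to 49, 44 to 45 and 45 to 49, and for the age change 30 to 39. Of all genes 81.5% to 83.3%, 67.5% to 70.9%, 74.9% to 76.7% and 61.9% to 65.6% were then called in the spinal cord. The all-gene shares were 39.1% to 43% and 43.1% to 50.8% in the Cre-positive and Cre-negative diaphragm. Between tissues they were 69.8% to 72.1%, 71.5% to 77%, 68.9% to 71.4% and 71.2% to 74.4%. For the age change the share was 54.2% to 58.9%. The Cre counts were 3 to 5 at E15.5, 13 to 22 at P0.5, 1 to 2 at P10 and 4 to 11 in the adult. Of all genes 5.04% to 11.2%, 19.6% to 30.3%, 0.318% to 1.12% and 6.11% to 11.9% were called at these ages. At E15.5 the count became 4 when replicate 2 of either genotype was left out, and 3 when replicate 1 or 3 of the Cre-positive mice was. It became 13 at P0.5 when Cre-positive replicate 3 was omitted and 2 at P10 when Cre-positive replicate 1 was. Adult counts became 11 on omitting Cre-positive replicate 1 and 4 on omitting replicate 2 of that genotype. The log2 ratio of Eef1a2 to Eef1a1 changed by 3.79 to 3.96, 5.74 to 5.89 and 4.73 to 5.09 in the spinal cord, Cre-positive and Cre-negative diaphragm.

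RLE, edgeR and DESeq2 turned the sign of some adult against E15.5 values, given here in that order. In the spinal cord these were Eef1b2 (0.01, 0.00, 0.01), Eif4e (0.20, 0.20, 0.20), Eif4a2 (0.37, 0.37, 0.37), Eif1a (0.07, 0.07, 0.08) and Eif1ax (0.10, 0.09, 0.09), and Eif4ebp3 with RLE (0.00). In the Cre-positive diaphragm they were Eef1e1 (0.34, 0.47, 0.37), Eif2ak4 (0.22, 0.53, 0.44), Eif4ebp2 (0.37, 0.50, 0.40) and Eif4g1 (0.31, 0.42, 0.32), and Eif1b with edgeR (0.11) and DESeq2 (0.00). In the Cre-negative diaphragm they were Eef1d (0.30, 0.39, 0.28) and Eef1e1 (0.00, 0.12, 0.01). Eef1a2 between tissues at P0.5 was 0.05 with edgeR. Leaving out 1 library turned only uncalled values among those named. Spinal cord Eif2s2 ranged from -0.02 (without E15.5 replicate 1) to 0.18, where it was called (without E15.5 replicate 2). Eif4ebp3 in the Cre-negative diaphragm ranged from -0.42 (without E15.5 replicate 1) to 1.75. In the Cre-positive diaphragm Eef2 ranged from -0.07 (without E15.5 replicate 2) to 0.19, Eif2ak3 from -0.19 to 0.77 (also -0.04 without E15.5 replicate 2), Eif2ak4 from -0.35 to 0.16 and Eif4ebp2 from -0.40 to 0.02, the turned values of the last 3 without adult replicate 2. Called values that lost their call when some single libraries were left out were Eif1, Eif1b and Eif4g3 in the Cre-positive diaphragm, Eif4e, Eif4g2 and Eif5 in the Cre-negative diaphragm, and Eif2ak3 in the spinal cord.

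The deviations of libraries with the same replicate number had correlations of -0.10 to 0.10. With 3 libraries a group and an intermediate library in each, these values cannot show which libraries share an animal. Whether same-numbered libraries came from the same animal was not tested. Blocking by replicate number gave counts of 54, 43, 46 and 42 in the spinal cord (85.1%, 73.6%, 79.4% and 69.3% of all genes). The counts were 35 and 34 in the Cre-positive and Cre-negative diaphragm (46.8% and 50.8% of all genes). Between Cre groups they were 7, 19, 1 and 6 (10.5%, 27.2%, 1.19% and 11.3%). Between tissues they were 39, 46, 46 and 48 (73.7%, 75.3%, 72.9% and 74.7%), and for the age change 37 (57.9%).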
